A study of Mus musculus with 20 samples.

Results

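Transcripts of 9 genes of pericellular proteolysis were followed in DC2 cells, a mouse epididymal line, under fluid flow and after silencing of Ift88. They are the 9 genes of the 21509 in each abundance table whose symbol is Plaur, Plau, Plat, Serpine2, F3, Adamts1, Adamts5, Timp1 or Timp3, matched by symbol and read in all libraries. They comprise a protease receptor (Plaur), both plasminogen activators (Plau and Plat), an inhibitor of these and of thrombin (Serpine2), the receptor that starts coagulation (F3), 2 secreted metalloproteases (Adamts1 and Adamts5) and 2 metalloprotease inhibitors (Timp1 and Timp3).

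As background, urokinase (Plau) and tissue-type plasminogen activator (Plat) cut plasminogen into plasmin, a broad protease that degrades fibrin and matrix, and the urokinase receptor (Plaur) holds this activity at the cell surface. Tissue factor (F3) binds coagulation factor VII and so leads to thrombin, which also signals to cells through protease-activated receptors. ADAMTS1 and ADAMTS5 cleave large proteoglycans such as versican and aggrecan, TIMP proteins block metalloproteases, and plasminogen activators are made along the male reproductive tract, including the epididymis.

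DC2 is a single immortalized line derived from principal cells of the distal caput of the mouse epididymis, and all libraries come from it. In the flow experiment, cells in microfluidic channels were serum-starved so that they form primary cilia, then spent 3 hours with fluid moving over them at a shear stress of 1 dyn/cm2 (flow, 6 libraries) or without it (static, 6 libraries). In the siRNA experiment, cells were transfected with a mixture of siRNAs against Ift88, a gene required to build cilia (Ift88 siRNA, 4 libraries), or with a scrambled siRNA (control siRNA, 4 libraries). The results and a figure legend of the paper say that both siRNA groups received flow, which the labels do not state. The labels of 1 library conflict: the title of flow replicate 6 says flow, but its treatment field says static. It was counted as flow. The other reading was fitted only for the fold changes and calls of the main fit, and its values are given for the tested members. Paired fits, replicate sets, separations, orders, ratios and correlations are given with this library as flow only. Nothing in the labels says whether the libraries of a group come from separate cultures, so p-values measure the spread between these libraries only.

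Expression is given in TPM (transcripts in every 1000000), a length-scaled share that sums to 1000000 in each library and holds no read totals, so the counting depth of each value is unknown. The libraries listed 15543 to 16562 genes above 0 in the flow experiment. In the siRNA experiment they listed 15713 to 16682 with Ift88 siRNA and 15292 to 15382 with control siRNA, without overlap. What lies behind this difference was not tested. The silencing was visible in its target: Ift88 was at 0.917 to 1.71 TPM with Ift88 siRNA and at 4.08 to 4.21 TPM with control siRNA (log2 fold change -1.17, adjusted p = 0.00212 in limma). Markers of differentiated principal cells were mostly absent: 1 of 8 reached a mean of 1 TPM in the flow experiment (Cftr, at 5.13 TPM in flow and 4.73 TPM in static libraries), the water channel Aqp9 was at 0.168 and 0.174 TPM, and Lcn8, Lcn9 and Defb15 were at 0 in every flow and static library. Of 6 general epithelial markers, 2 reached that level in the flow experiment and 3 in the siRNA experiment. Summed markers of macrophages and other blood cells ranged from 10.5 to 40.3 TPM in flow and from 13.9 to 65.3 TPM in static libraries, mainly from the lysosomal gene Cd68, while Adgre1 was at 0, and no endothelial marker reached a mean of 1 TPM there. No marker that could be tested, from any of the 8 cell type lists, was called in either experiment.

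The 9 genes lie on 8 chromosomes of the mouse genome (GRCm38). Plaur spans chr7:24462484-24475968, Plau chr14:20836660-20843385, Plat chr8:22757727-22782844 and F3 chr3:121723537-121735048, all on the plus strand, and Serpine2 spans chr1:79794197-79861180 on the minus strand. Adamts1 (chr16:85793827-85803113) and Adamts5 (chr16:85856173-85901828) are neighbours on the minus strand of the same chromosome, 53.1 kb apart, with 0 protein-coding genes between them. Timp1 (chrX:20870166-20874735) lies on the plus strand inside the span of Syn1 and Timp3 (chr10:86300372-86349506) inside that of Syn3, both of which run on the other strand. Syn1 did not exceed 2.05 TPM in the flow experiment, and Syn3 averaged 1.98 TPM in flow and 1.97 TPM in static libraries, far below the Timp genes they overlap.

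F3, Plaur and Adamts1 are the members on which the flow results turn, and the 250 bases before their start sites are printed here because they can be read side by side for the motifs of transcription factors known as early responders. The sequences are from RefSeq (GRCm38.p6), which gave a promoter window for 6 of the 9 members, Plaur, Serpine2, F3, Adamts1, Timp1 and Timp3, and each is written from 5′ to 3′ on the strand of its gene. They cover chr3:121723287-121723536 (F3, plus strand), chr7:24462233-24462482 (Plaur, plus strand) and chr16:85803114-85803363 (Adamts1, minus strand). Capitals mark matches to the AP-1 motif TGANTCA and the EGR motif GCGNGGGCG, both searched on both strands in windows of 250 bases before to 50 after the start.
F3: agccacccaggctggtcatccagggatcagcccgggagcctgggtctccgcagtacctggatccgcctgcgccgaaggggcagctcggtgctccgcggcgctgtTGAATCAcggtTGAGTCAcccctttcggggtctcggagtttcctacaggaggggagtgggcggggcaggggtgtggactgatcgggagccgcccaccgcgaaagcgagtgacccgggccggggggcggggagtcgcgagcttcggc
Plaur: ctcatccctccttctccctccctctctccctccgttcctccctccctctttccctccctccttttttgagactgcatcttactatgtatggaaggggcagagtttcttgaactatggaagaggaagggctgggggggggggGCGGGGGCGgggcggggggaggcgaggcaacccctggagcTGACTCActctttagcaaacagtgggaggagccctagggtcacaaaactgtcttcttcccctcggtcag
Adamts1: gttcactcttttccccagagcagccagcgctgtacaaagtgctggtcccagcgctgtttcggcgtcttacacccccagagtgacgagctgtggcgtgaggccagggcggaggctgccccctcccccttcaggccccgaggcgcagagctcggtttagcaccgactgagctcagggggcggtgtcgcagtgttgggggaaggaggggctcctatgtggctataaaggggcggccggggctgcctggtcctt

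The F3 window held 2 AP-1 matches, TGAATCA from position -146 and TGAGTCA from position -135 relative to the start site. Plaur held 1 AP-1 match, TGACTCA from position -69, and 1 EGR match, GCGGGGGCG from position -109. Over all 32851 windows of the reference, 7.81% held the AP-1 motif and 5.55% the EGR motif. The Adamts1 and Timp3 windows held no match to these or to the other motifs searched, TEAD (GGAATG, in 14.7% of windows), CRE (TGACGTCA, 1.79%) and the CArG box of SRF (1.63%). Serpine2 held an EGR match from position -17, and Timp1 a TEAD match from position -247. These are matches of letters and say nothing on binding.

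The comparison of flow with static libraries asked how shear stress changes transcript levels in these cells. All 8 members that could be tested had a higher mean under flow, and 3 of them stood apart, F3, Adamts1 and Plaur, with log2 fold changes of 1.81, 1.27 and 0.93. The other plasminogen and ADAMTS members, Plau, Plat and Adamts5, had log2 fold changes of 0.27 to 0.36, Timp3 0.69 and Timp1 0.08. The median over the 8 members was 0.52, beside -0.03 over all 11388 genes tested. In bulk RNA, a change in the share of cells expressing a gene and a change in its RNA per cell cannot be told apart.

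None of the members was called in the limma fit of the 6 flow and 6 static libraries, where a call needs both an adjusted p under 0.05 and over 1.5-fold change; 0.105% of all genes were called higher and 0% lower. At an unadjusted p under 0.05, 4 of the 8 tested members were higher, Adamts1, F3, Plaur and Timp3, where 2.05% of all genes were. Flow and static libraries share replicate numbers, and libraries with the same number deviated together, so the change was also fitted within pairs, with a block for each replicate number (the block). In this fit 2 members were called higher, F3 and Plaur, where 0.597% of all genes were called higher and 0% lower, and Adamts1 just missed the threshold (adjusted p = 0.0507). In that fit 7 of the 8 tested members passed an unadjusted p under 0.05, all but Timp1, where 3.94% of all genes did so in the same direction.

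The calls with the block depended on which pairs were in the fit. Leaving out any pair other than the pair numbered 2 left 0 members called, with adjusted p-values of 0.0710 to 0.202 for F3 and 0.0760 to 0.202 for Plaur, while leaving out pair 2 gave 4 called members, F3, Plaur, Adamts1 and Timp3, all higher, as 1.19% of all genes were. In all, 193 genes were called without pair 2 and 8 to 51 without any other pair. Without pair 6, which holds the library of conflicting labels, the log2 fold changes with the block were 1.48 for F3 and 0.78 for Plaur. These fits with pairs left out were chosen after seeing the data.

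**Figure D1:**
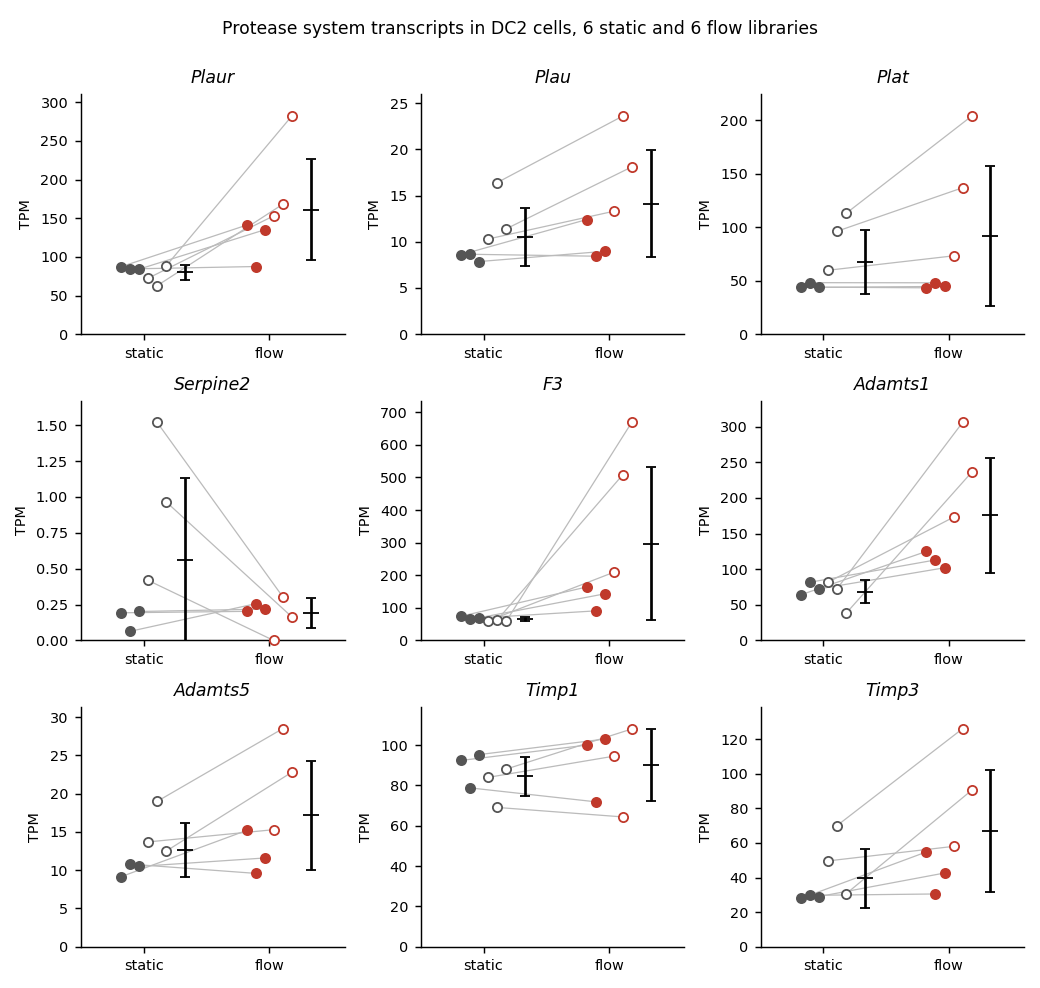
TPM of the 9 members in the 6 static (gray) and 6 flow (red) libraries, with filled symbols for replicates 1 to 3, open symbols for replicates 4 to 6 and lines between libraries of the same number. Horizontal marks are means and bars 1 SD (cut at 0 for Serpine2), each vertical axis starts at 0, and all flow points of F3 and Adamts1 lie above all static points, with F3 reaching 669 TPM in flow replicate 6.

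F3, tissue factor, had the largest change of the members. The static libraries held 74.2, 67.3, 69.5, 60.1, 62.4 and 58.5 TPM in replicates 1 to 6, and the flow libraries 164, 90.8, 143, 209, 508 and 669 TPM. The lowest flow library was above the highest static one, a separation shared by Adamts1 and seen upward in 0.492% and downward in 0.0527% of all genes tested. With flow replicate 6 counted as static, neither gene would have this separation. The means were 297 ± 234 TPM under flow and 65.3 ± 6.04 TPM in static libraries (SD, n = 6 each), a ratio of 4.55, and the coefficient of variation was 78.8% under flow and 9.24% in static cells. The log2 fold change was 1.81 (SE 0.39, 95% interval 0.98 to 2.64, adjusted p = 0.105 without and 0.0426 with the block). Without flow replicate 6 it was 1.51 (adjusted p = 0.111), and with that library counted as static it was 1.03 (adjusted p = 1.00).

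Plaur encodes the urokinase receptor, a surface protein anchored in the membrane by a lipid. Its static libraries were close to each other, at 87.2, 84.4, 84.1, 72.4, 62.7 and 88.3 TPM, and its flow libraries held 141, 87.5, 135, 153, 168 and 282 TPM. Flow replicate 2 lay inside the static range and the other 5 flow libraries above it. The means were 161 ± 65.2 and 79.8 ± 10.1 TPM (SD, n = 6 each), with a log2 fold change of 0.93 (SE 0.20, 95% interval 0.49 to 1.36, adjusted p = 0.113 without and 0.0365 with the block). Within pairs of the same number Plaur was higher under flow in 6 of 6, by 0.05 to 1.66 on the log2 scale. Its log2 fold change was 0.75 without flow replicate 6 and 0.49 with that library counted as static.

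The ligand of this receptor had a smaller fold change, a difference that was not tested. Plau, urokinase, was at 12.4, 8.44, 8.97, 13.3, 23.6 and 18.1 TPM in the flow libraries and at 8.60, 8.65, 7.86, 10.3, 16.4 and 11.4 TPM in the static ones. The groups overlapped, although flow was higher in 5 of 6 pairs. Its log2 fold change was 0.35 (95% interval -0.15 to 0.84, adjusted p = 0.998 without and 0.196 with the block). It was 0.19 without flow replicate 5 and 0.15 with flow replicate 6 counted as static. Plaur TPM exceeded Plau TPM by 7.14 to 15.6 times in flow and 3.82 to 10.7 times in static libraries.

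Plat, the tissue-type activator, varied more between replicate numbers than between groups. It was at 43.4, 48.1 and 44.7 TPM in flow replicates 1 to 3 and at 44.1, 48.2 and 43.8 TPM in static replicates 1 to 3. In replicates 4 to 6 it was at 73.3, 137 and 204 TPM under flow and 59.8, 96.3 and 113 TPM without it. Pairs 1 to 3 thus differed by 0.03 or less on the log2 scale, and pairs 4 to 6 by 0.29, 0.51 and 0.84. The log2 fold change over all libraries was 0.27 (95% interval -0.55 to 1.09, adjusted p = 0.998 without and 0.379 with the block), and it was -0.01 without flow replicate 6 and -0.25 with that library counted as static.

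Serpine2, protease nexin-1, was near the bottom of the range and was left out of the main fit, since its mean was under 1 TPM. It was at 0.203, 0.256, 0.219, 0, 0.305 and 0.165 TPM in the flow libraries and at 0.193, 0.0638, 0.202, 0.419, 1.52 and 0.966 TPM in the static ones. Only static replicate 5 exceeded 1 TPM. Serpine2 was lower under flow in pairs 4 to 6 and not in pairs 1 to 3. In limma with no filter on low values its log2 fold change was -0.32 (unadjusted p = 0.110, adjusted p = 1.00).

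Adamts1, a secreted protease of versican and aggrecan, had the second largest change. Its flow libraries held 125, 113, 102, 173, 306 and 236 TPM, and its static libraries 64.1, 81.7, 72.4, 81.8, 72.6 and 38.1 TPM. The groups did not overlap. The means were 176 ± 80.6 and 68.4 ± 16.3 TPM (SD, n = 6 each), and the log2 fold change was 1.27 (SE 0.26, 95% interval 0.71 to 1.83, adjusted p = 0.0887 without and 0.0507 with the block). By p-value it was 31st of all genes tested, ahead of F3 (38th) and Plaur (44th). Without flow replicate 6 the log2 fold change was 1.17, and with that library counted as static it was 0.91.

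Adamts5, its neighbour on the chromosome and a protease of the same proteoglycans, was at 15.2, 9.59, 11.6, 15.3, 28.5 and 22.8 TPM under flow and at 9.15, 10.8, 10.5, 13.7, 19.0 and 12.5 TPM in static cells. The groups overlapped, and the log2 fold change was 0.36 (95% interval -0.14 to 0.86, adjusted p = 0.998 without and 0.321 with the block). The value was 0.20 when flow replicate 5 was left out and 0.15 when flow replicate 6 was counted as static. The ratio of Adamts1 to Adamts5 TPM, both per length, was 8.23 to 11.8 in flow and 3.04 to 7.53 in static libraries. All flow libraries therefore had a higher ratio than all static libraries, which is a description and was not tested.

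The inhibitors Timp1 and Timp3 differed in how much they varied. Timp1, which blocks many matrix metalloproteases, was at 64.4 to 108 TPM under flow and 69.1 to 95.3 TPM in static libraries. Its means were 90.4 ± 17.9 and 84.6 ± 9.61 TPM (SD, n = 6 each), with a log2 fold change of 0.08 and a 95% interval of -0.20 to 0.35. Timp3, which is bound to the matrix and also inhibits ADAMTS proteases, was at 54.8, 30.5, 42.6, 58.0, 126 and 90.4 TPM under flow and at 27.9, 29.7, 29.0, 49.6, 70.0 and 30.6 TPM in static cells. It was higher under flow in 6 of 6 pairs although the groups overlapped. Its log2 fold change was 0.69 (95% interval 0.01 to 1.36, unadjusted p = 0.0465, adjusted p = 0.998 without and 0.113 with the block). With flow replicate 6 counted as static it was 0.39. Adamts1 TPM exceeded Timp3 TPM in every flow and static library, by 2.28 to 3.71 times in flow and 1.04 to 2.75 times in static libraries, ranges that overlapped.

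**Figure D2:**
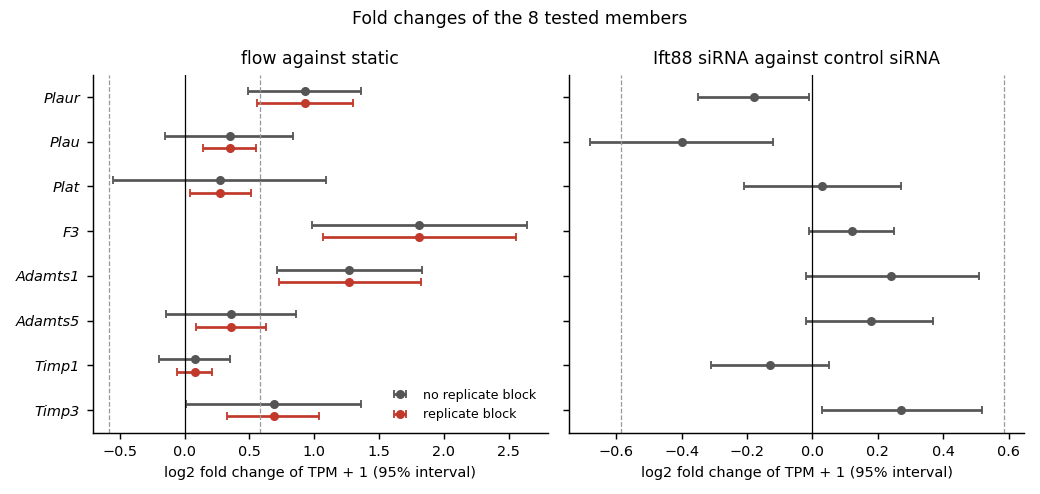
Log2 fold changes of TPM + 1 with 95% intervals from limma for the 8 tested members, for flow against static without (gray) and with (red) the replicate block, and for Ift88 siRNA against control siRNA without it. Dashed lines mark 1.5-fold in either direction and the horizontal scales differ: the points of F3, Adamts1, Plaur and Timp3 lie past the line in the flow panel, while none does in the siRNA panel, where Plau is lowest at -0.40.

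In order of mean TPM, the static cells held Timp1, Plaur, Adamts1, Plat, F3 and Timp3, all between 39.5 and 84.6 TPM, then Adamts5 (12.6 TPM), Plau (10.5 TPM) and Serpine2 (0.561 TPM). Within the leading 6 the static order was not stable, since Timp1 was highest in 3 libraries, Plat in 2 and Plaur in 1. Under flow, F3 was the highest member in 5 of 6 libraries and Adamts1 in the other. The order by mean was then F3, Adamts1, Plaur, Plat, Timp1, Timp3, Adamts5, Plau and Serpine2, and the last 3 held the same places in every flow and static library. The ratio of F3 to Timp1 TPM was 1.26 to 7.89 in flow and 0.664 to 0.904 in static libraries, so that F3 was above Timp1 in every flow library and below it in every static one.

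The size of the flow change differed with the replicate number. For F3 the pairs 1 to 6 changed by 1.14, 0.43, 1.03, 1.78, 3.00 and 3.49 on the log2 scale, for Adamts1 by 0.96, 0.46, 0.50, 1.07, 2.06 and 2.60, and for Plaur by 0.69, 0.05, 0.67, 1.07, 1.41 and 1.66. Pair 2 had the smallest and pair 6 the largest change for each of these 3 genes, and pair 6 holds the library with conflicting labels. On the first principal component of the 12 libraries (34.4% of the variance), replicates 1 to 3 of flow and static lay apart from replicates 4 to 6, a split seen in the data that the labels do not explain. The split was not sharp. Replicates 1 to 3 were at -23.5 to -7.70 and replicates 5 and 6 at 14.5 to 27.1. Replicate 4 lay between them, at 4.59 in flow and -1.16 in static.

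The sets of replicates 1 to 3 and 4 to 6 were taken from the split seen in these data, so results by set are descriptions. Within replicates 4 to 6 alone, F3 and Adamts1 were called higher under flow, with log2 fold changes of 2.76 (adjusted p = 0.0243) and 1.91 (adjusted p = 0.0488), and Plaur was not (1.38, adjusted p = 0.0634), while 0.490% of all genes were called higher. Within replicates 1 to 3 alone no member was called, and the log2 fold changes were 0.87 for F3, 0.64 for Adamts1 and 0.47 for Plaur. The difference between the sets was tested as an interaction in limma over all genes. It was 1.89 for F3 (SE 0.47, unadjusted p = 0.00154, adjusted p = 0.884), 1.27 for Adamts1 (unadjusted p = 0.00390) and 0.91 for Plaur (unadjusted p = 0.0136). No member was called for it, as 0% of all genes were, and these 3 of 8 members passed an unadjusted p under 0.05, where 2.09% of all genes did. With the block in this interaction fit, no member was called either, while 18 genes were called in all. The p of F3 was then 3.30e-04 (adjusted p = 0.130), and that of Plat was 0.00304, beside 0.220 without the block. Once flow replicate 4 was left out, F3 was the 1 member called, with a difference of 2.39 and an adjusted p of 0.00156, among 34 genes called in all (0.298%). Without flow replicate 6, the library of conflicting labels, the difference for F3 was 1.55, and without flow replicate 2 it was 1.64. In each of these fits 0 genes were called.

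The static libraries carried the same split without any flow. Plat, Plau, Adamts5 and Timp3 were each higher in all 3 static libraries of replicates 4 to 6 than in all 3 of replicates 1 to 3, as 31.3% of all genes were. Their static means in replicates 1 to 3 and 4 to 6 were 45.4 and 89.9 TPM for Plat, 8.37 and 12.7 TPM for Plau, 10.2 and 15.1 TPM for Adamts5 and 28.9 and 50.1 TPM for Timp3. Serpine2, left out of the tested genes for its low level, was split in the same direction without overlap (0.153 and 0.968 TPM). F3 went the other way, from 70.3 ± 3.55 to 60.3 ± 1.96 TPM (SD, n = 3 each), without overlap, as 4.46% of all genes did. Adding the set of replicate numbers as a term, an alternative chosen after seeing the data, gave 2 called members, F3 (adjusted p = 0.0334) and Adamts1 (adjusted p = 0.0350), where 0.492% of all genes were called higher.

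**Figure D3:**
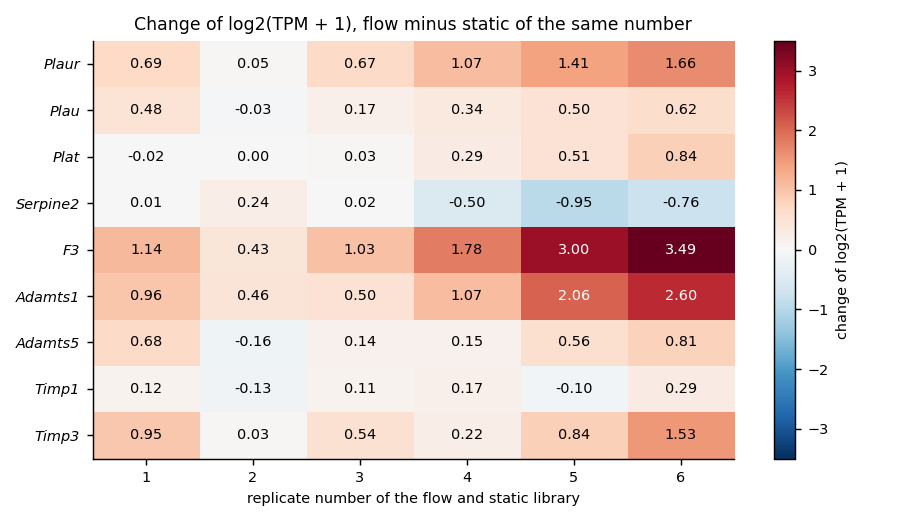
Change of log2(TPM + 1) between the flow and the static library of the same replicate number for the 9 members, with the value written in each cell (red higher under flow, blue lower). F3, Adamts1 and Plaur are higher under flow in all 6 columns, with the largest values in columns 5 and 6, while Plat is near 0 in columns 1 to 3.

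Across the 12 libraries the members varied together to different degrees, given as Pearson correlations of log2(TPM + 1) between libraries that share the flow contrast and the split of replicate numbers. The highest values were 0.979 between Plau and Adamts5, 0.973 between Adamts5 and Timp3, 0.950 between Plaur and F3, 0.943 between Plau and Timp3 and 0.918 between F3 and Adamts1. No sharp groups could be drawn from them, since Plaur and Adamts1 (0.798), Adamts1 and Timp3 (0.787), F3 and Timp3 (0.781) and F3 and Adamts5 (0.740) were close to each other. Timp1 had lower values, 0.434 with Plaur, 0.166 with F3 and -0.285 with Plau. In the 8 siRNA libraries Plaur and F3 had an r of -0.551 and Plaur and Adamts1 of -0.803. There Plau had -0.506 with Adamts5 and -0.466 with Timp3. Adamts5 and Timp3 (0.830) and F3 and Adamts1 (0.642) stayed positive.

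Among all other tested genes, those most like F3 over these 12 libraries were Hbegf (r = 0.987), a growth factor of the EGF family, Tnfaip3 (0.987), a brake on NF-kB signaling, and Mob3a (0.986). Those most like Plaur were Mafk (0.979), a small MAF transcription factor, Ereg (0.975), another ligand of the EGF receptor, and Zfp36l2 (0.972), an RNA-binding protein that promotes mRNA decay. Hbegf was at 292 ± 191 TPM in flow and 81.9 ± 7.81 TPM in static libraries (SD, n = 6 each). Its log2 fold change of 1.58 was called with the block (adjusted p = 0.0108) and not without it (adjusted p = 0.0887). In the 8 siRNA libraries the same likeness held for Mob3a and F3 (r = 0.969) but not for Hbegf and F3 (0.266) or Mafk and Plaur (-0.811).

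The rest of the pathway was read from a list of 96 further genes, all of them in the tables. In the flow comparison 37 of them passed the filter on low values, and 0 were called in either direction, without or with the block. Their log2 fold changes ran from -0.33 (Spint2, an inhibitor of membrane serine proteases) to 0.37 (Prss23, a secreted serine protease), with a median of -0.04, and 1 gene, Prss23, passed an unadjusted p under 0.05, where 3.85% of all genes did in either direction. With the block 7 of the 37 passed it, where 11.1% of all genes did. Among the 11 tested genes of plasminogen activation and binding, the most abundant was Eno1, a glycolytic enzyme that also binds plasminogen at the surface, at 1270 ± 346 TPM in flow and 1410 ± 267 TPM in static libraries (SD, n = 6 each). Of the 8 tested genes around tissue factor and thrombin the most abundant was F2r, the main thrombin receptor, at 50.9 ± 6.19 and 47.2 ± 4.91 TPM. Genes of the proteins that this system acts on were near 0 over the 12 libraries. Plasminogen (Plg) averaged 0.00432 TPM, factor VII (F7) 0.00325, prothrombin (F2) 0.0210, versican (Vcan) 0.0631 and aggrecan (Acan) 0.00230 TPM. Among 4 tested ADAMTS proteases it was Adamts10, at 6.62 and 7.04 TPM, and among the proteoglycan substrates only Dcn passed the filter, at 0.919 and 1.27 TPM. Of 13 other TIMP and metalloprotease genes Timp2 was highest, at 243 ± 44.9 and 242 ± 38.3 TPM, with a log2 fold change of 0.00.

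**Figure D4:**
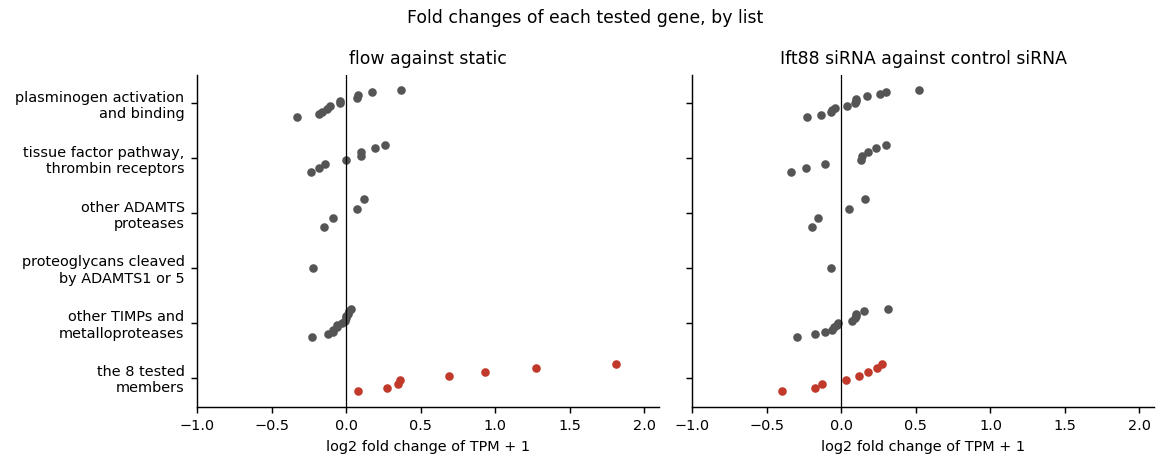
Log2 fold changes of TPM + 1 for each tested gene of 5 pathway lists (gray) and for the 8 tested members (red), each point 1 gene, in both comparisons on the same scale. In the flow panel the gray points stay between -0.33 and 0.37 while F3 reaches 1.81, and in the siRNA panel the members lie between -0.40 and 0.27.

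The siRNA comparison asked how silencing of Ift88 changes transcript levels in cells that received flow. The silencing was partial, with Ift88 at a mean of 1.30 TPM beside 4.14 TPM in control libraries. The paper reports that ciliated cells became fewer and cilia shorter, with some cells keeping theirs. No member was called in either direction, beside 0.152% of all 11209 genes tested called higher and 0.0714% lower, and no alternative run for this comparison gave a called member. The largest changes were -0.40 for Plau and 0.27 for Timp3, and the median over 8 tested members was 0.07, beside 0.02 over all genes. At an unadjusted p under 0.05, 2 members were lower, Plau and Plaur, where 4.91% of all genes were, and 1 was higher, Timp3, where 9.02% of all genes were. All Ift88 siRNA libraries also listed more genes above 0 than all control libraries. How this bears on low genes such as Plau and on these shares was not tested.

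Plau was the member with the clearest separation. It was at 2.06, 2.31, 2.42 and 1.75 TPM with Ift88 siRNA and at 3.61, 3.28, 2.81 and 2.84 TPM with control siRNA. The groups did not overlap, as was the case downward for 2.79% of all genes tested. The means were 2.14 ± 0.296 and 3.13 ± 0.386 TPM (SD, n = 4 each), with a log2 fold change of -0.40 (95% interval -0.68 to -0.12, unadjusted p = 0.00954, adjusted p = 0.209 in limma). Its receptor Plaur was at 670, 716, 735 and 812 TPM with Ift88 siRNA and at 831, 808, 943 and 737 TPM with control siRNA, groups that overlapped (log2 fold change -0.18, 95% interval -0.35 to -0.01, adjusted p = 0.344). Without control siRNA replicate 3, the library at 943 TPM, the log2 fold change of Plaur was -0.11.

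F3 and Adamts1, with the largest flow changes, differed little here. F3 was at 662, 687, 605 and 675 TPM with Ift88 siRNA and at 610, 647, 565 and 596 TPM with control siRNA. The groups overlapped, and the log2 fold change was 0.12 with a 95% interval of -0.01 to 0.25 (adjusted p = 0.401 in limma). Adamts1 was at 300, 239, 201 and 194 TPM with Ift88 siRNA and at 181, 224, 175 and 201 TPM with control siRNA, with overlap (log2 fold change 0.24, 95% interval -0.02 to 0.51, adjusted p = 0.400). Without Ift88 siRNA replicate 1, the library at 300 TPM, the log2 fold change of Adamts1 was 0.12. Whether the response to flow itself differs after silencing is not answered by these libraries, since none was static with siRNA.

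Adamts5 was at 20.9, 19.5, 17.4 and 17.0 TPM with Ift88 siRNA and at 16.7, 16.8, 16.0 and 15.9 TPM with control siRNA. The groups were apart but close, and 5.79% of all genes were apart in this direction (log2 fold change 0.18, 95% interval -0.02 to 0.37, adjusted p = 0.408 in limma). Timp3 was at 436, 373, 308 and 347 TPM against 304, 352, 246 and 310 TPM in control cells, with overlap (log2 fold change 0.27, 95% interval 0.03 to 0.52, adjusted p = 0.311). Without Ift88 siRNA replicate 1 the log2 fold changes were 0.12 for Adamts5 and 0.18 for Timp3. Timp1 was at 69.6 to 89.1 TPM against 77.7 to 93.2 TPM (log2 fold change -0.13, adjusted p = 0.508, and -0.20 to -0.08 with 1 library left out). Plat was at 426 to 506 TPM against 359 to 567 TPM, and its log2 fold change of 0.03 had a sign that turned in some alternatives. Serpine2 stayed at 0.205 to 0.762 TPM against 0.166 to 0.543 TPM, and limma with no filter on low values gave it a log2 fold change of 0.18 (adjusted p = 0.714).

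**Figure D5:**
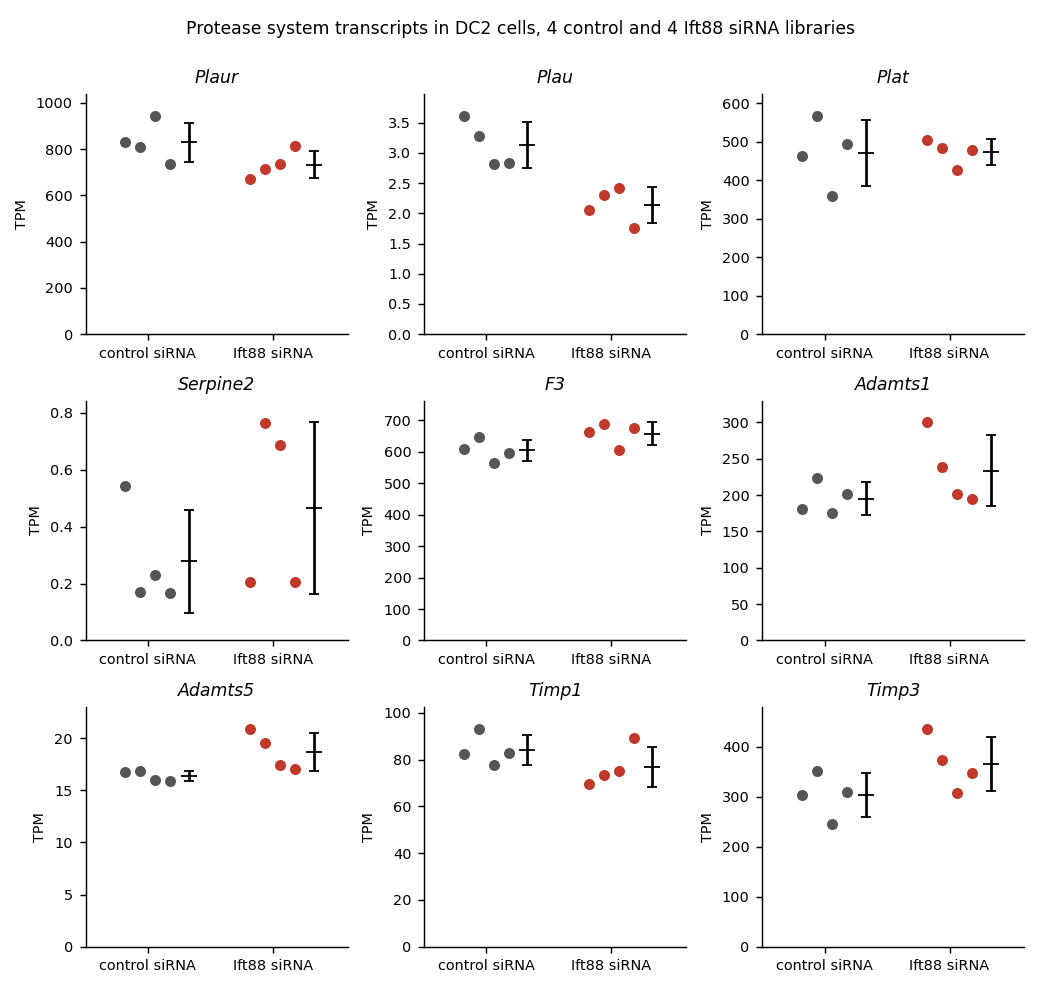
TPM of the 9 members in the 4 control siRNA (gray) and 4 Ift88 siRNA (red) libraries, in order of replicate number within each group, with means and 1 SD, each vertical axis starting at 0. Plau is lower in all Ift88 siRNA libraries (1.75 to 2.42 TPM) than in all control libraries (2.81 to 3.61 TPM), Adamts5 is higher in all of them, and the other groups overlap.

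The order of the members by TPM was the same in all 8 siRNA libraries: Plaur, F3, Plat, Timp3, Adamts1, Timp1, Adamts5, Plau and Serpine2. Plaur TPM exceeded Plau TPM by 304 to 463 times with Ift88 siRNA and by 230 to 336 times with control siRNA. Of the 96 further pathway genes, 39 were tested and 0 called, with log2 fold changes from -0.34 (F8, coagulation factor VIII) to 0.52 (Spint2) and a median of 0.05. An unadjusted p under 0.05 was reached by 3 of the 39, beside 13.9% of all genes in either direction. The most abundant was the plasminogen-binding Anxa2, at 3100 ± 151 TPM in silenced and 3250 ± 93.4 TPM in control cells (SD, n = 4 each). In the other lists the leaders were F2r at 70.5 and 61.9 TPM, Adamts10 at 5.45 and 6.10 TPM, Ncan at 0.995 and 1.09 TPM, and Adam10, a membrane metalloprotease, at 149 and 154 TPM.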

How the data were processed

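RNA-seq libraries of DC2 cells were analysed in 2 experiments, grouped by the sample labels. The authors deposited 1 table of TPM per experiment, for 21509 protein-coding genes. Per the labels, reads were processed with fastp 0.20.0, FastQC 0.11.8, MultiQC 1.8 and kallisto 0.46.2, while the study's methods name Trimmomatic in place of fastp, the Ensembl mouse transcriptome and tximport. All sample columns were used. Since TPM are not counts, the groups were compared on log2(TPM + 1) by linear models (limma 3.58.1, R 4.3.3, moderated with a trend on mean level), leaving out genes whose mean was under 1 TPM, and p-values were adjusted by Benjamini-Hochberg over all genes tested. Fold changes on this scale understate those of low genes. Calls required an adjusted p under 0.05 and a change over 1.5-fold. The main fit and the fit with a replicate block were tested on simulated data. The interaction and the other alternatives were not. Figures and sequences were made with Python 3.11.15, pandas 2.3.3, numpy 2.4.6 and matplotlib 3.10.9.

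Deviations of same-numbered flow and static libraries from their group means correlated over genes at 0.294, 0.463, 0.425, 0.468, 0.662 and 0.600 (replicates 1 to 6), so libraries with the same number were treated as pairs. The study's methods name no pairing, and the fit without it was reported first.

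All 9 members were named, whatever their values, with the most abundant gene of each pathway list, the 3 genes most correlated with each called member, and Ift88. Genes outside this rule (Spint2, Prss23, F8, Plg, F7, F2, Vcan, Acan and the markers) were named after their values were seen. The members and lists were chosen with earlier results of these data known, so their counts and medians beside those of all genes are descriptions. The values of 1 further inhibitor of this system are not reported here.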

Additional observations from a re-analysis of the deposited data

Results flagged for a closer look

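Adamts1 in static replicate 6 was far from the other static libraries, at 38.1 TPM where the other 5 held 64.1 to 81.8 TPM, and its gap to the nearest of them was 0.679 of the whole range on the log2(TPM + 1) scale. The check was made for each member in each group, 36 in all, and chance alone would flag about 1 in 20. Without this library the log2 fold change of Adamts1 under flow was 1.12 (adjusted p = 0.195 in limma), beside 1.27 with it. The same pair holds flow replicate 6, whose labels conflict, and gave the largest paired change of Adamts1, 2.60 on the log2 scale.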

How the results depend on the processing

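Of 322 refitted fold changes of the members, 300 kept their direction and their side of the threshold, 16 kept their direction and passed the threshold where the reported fit did not, and 6 changed sign. The flow calls depended on the fit: 0 members were called as first reported, 2 with the replicate block, 3 with library weights, 2 in replicates 4 to 6 alone, 2 with the set of replicate numbers as a term, and 0 to 3 when 1 library was left out (3 without flow replicate 2: Plaur, F3 and Adamts1). With the replicate block and 1 pair left out, the count was 0 to 4. The cause was not tested. Over all genes, 12 were called in flow against static, 68 with the replicate block, 86 with library weights, 87 without flow replicate 2, 56 with the set as a term and 0 with flow replicate 6 counted as static, and 438 had an unadjusted p under 0.05. The test of the difference between the replicate sets called 0 members, or 0 to 1 with 1 library left out. Over all genes it called 0 as first reported, 8 with library weights, 18 with the replicate block and 34 without flow replicate 4. Signs changed for Plat under flow (-0.01 to 0.44 with 1 library left out, -0.25 with flow replicate 6 counted as static), for Timp1 under flow (-0.03 with that library counted as static) and for Plat with Ift88 siRNA (-0.02 with library weights, -0.10 to 0.12 with 1 library left out). In the siRNA experiment, deviations of same-numbered libraries correlated at 0.0464, 0.00276, 0.259 and 0.176, and 4 of 8 libraries correlated best with their own number, so the numbers were not taken to pair them. The replicate block there raised the genes called from 25 to 44 and called 0 members. TPM hold no read totals, so the counting error of low values, Serpine2 above all, is unknown.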

Other observations

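The siRNA libraries listed some members at levels outside those of the flow experiment, although both siRNA groups received flow according to the paper. Plaur was at 670 to 943 TPM in the 8 siRNA libraries and at 87.5 to 282 TPM in the 6 flow libraries, and Plat was at 359 to 567 TPM and 43.4 to 204 TPM. Plau went the other way, at 1.75 to 3.61 TPM beside 8.44 to 23.6 TPM. Timp1 stayed within 64.4 to 108 TPM in both. The experiments are in separate tables and differ in transfection and timing, so these differences were not tested and their sources cannot be told apart.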
